A study of Mus musculus with 6 samples.

Results

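The 9 genes described here specify primordial germ cells, mark their surface, or form the ligand and receptor pairs that guide them and keep them alive. They were taken by symbol from a table of 48709 genes, and all 9 were found in it and passed the filter on low counts. They are the specification factors Prdm1, Prdm14 and Tfap2c, the surface marker genes Ifitm3 and Alpl, the receptor Kit with its ligand Kitl, and the receptor Cxcr4 with its ligand Cxcl12. Polyadenylated RNA was measured in ovaries of 13.5 dpc (days post coitum) wild-type CD1 mouse embryos, as 3 control and 3 APAP+IBU libraries. Pregnant females were gavaged between 10.5 and 13.5 dpc, 4 times a day at 3 h intervals. The exposed group received APAP (acetaminophen, 30 mg/kg/day) alternating with IBU (ibuprofen, 15 mg/kg/day), and the control group received ethanol, the diluent. Each library came from a pool of gonads of several embryos, so differences between embryos of a pool were not measured. The labels do not say that a replicate number links a control with an exposed pool.

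Primordial germ cells are the embryonic founders of eggs and sperm. BMP signals from neighbouring tissues switch on PRDM1, PRDM14 and TFAP2C, which silence somatic genes and restore a pluripotency programme. The cells then migrate to the gonad. They carry the receptor tyrosine kinase KIT, whose ligand KITL from somatic cells sustains survival and movement, and the chemokine receptor CXCR4, whose ligand CXCL12 attracts them. In fetal ovaries these cells leave the pluripotent state and enter meiosis at about the stage sampled here. Whole ovaries hold germ cells and somatic cells together, so a smaller number of cells of a type and less RNA per cell cannot be told apart in these libraries.

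Promoters are shown for Alpl and Kit, the only members with a match to the AP-2 letters, because the AP-2 factor Tfap2c is itself a member, and for Cxcl12, the member whose groups did not overlap. RefSeq promoter windows on GRCm38.p6 were at hand for 7 of the 9 genes. The 250 bases before the start were searched on both strands for GCCNNNGGC (AP-2, the same on both strands), GGTCTCTAA (PRDM14), GAAAGTG (PRDM1 core) and GGGCGG (GC box). Capitals mark AP-2 matches in Alpl and Kit and GC boxes on either strand in Cxcl12, where a pair of boxes overlaps by a base. Only bases before both the RefSeq and the GENCODE M21 start are printed.
Alpl, chr4:137796385-137796634, minus strand: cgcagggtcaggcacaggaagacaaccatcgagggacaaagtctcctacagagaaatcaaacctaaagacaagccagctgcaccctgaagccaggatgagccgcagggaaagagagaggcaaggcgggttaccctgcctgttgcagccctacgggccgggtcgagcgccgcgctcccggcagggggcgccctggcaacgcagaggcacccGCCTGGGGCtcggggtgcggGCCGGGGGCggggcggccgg
Kit, chr5:75574737-75574915, plus strand: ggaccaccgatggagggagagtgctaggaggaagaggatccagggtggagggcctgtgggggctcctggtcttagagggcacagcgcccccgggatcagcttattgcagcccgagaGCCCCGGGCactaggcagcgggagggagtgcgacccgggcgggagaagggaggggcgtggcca
Cxcl12, chr6:117168285-117168534, plus strand: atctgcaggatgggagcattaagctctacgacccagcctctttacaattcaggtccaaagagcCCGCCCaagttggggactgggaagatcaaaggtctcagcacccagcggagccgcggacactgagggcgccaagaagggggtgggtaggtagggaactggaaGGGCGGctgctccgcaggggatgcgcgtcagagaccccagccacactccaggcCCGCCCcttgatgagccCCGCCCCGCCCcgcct

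The AP-2 letters were found in 2 of the 7 members and in 13.7% of all 32851 windows of this length. GC boxes were found in 6 of the 7 members and in 32.7% of all windows. These shares are per window, whereas Alpl and Kit each had 2 windows, and a match in either counted for the gene. The Alpl window that is not printed held no AP-2 letters and no GC box. The PRDM14 letters (0.24% of windows) and the PRDM1 core (4.01%) were found in none of the 7 members. These matches are descriptions of the letters and say nothing of binding.

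The 6 libraries held 37811968 to 48954631 counts. Marker lists were used to see which cells the pools contained. The germ cell list of 10 genes summed to 1400 to 2070 CPM (counts scaled to a common library size), with Ddx4 at 191 to 268 CPM and Dazl at 368 to 592 CPM. The pre-granulosa list of 10 genes summed to 1210 to 1620 CPM, although its defining gene Foxl2 was low, at 0.944 to 8.16 CPM, and Wnt4 was at 106 to 203 CPM. The fetal testis genes Sox9 (5.37 to 10.6 CPM) and Amh (0.253 to 2.6 CPM) were low in all pools, and their list of 9 summed to 27.2 to 57.1 CPM. Of its 7 tested genes 3 were lower in exposed pools at an unadjusted p under 0.05, beside 3.21% of all tested genes. Lower without overlap were 2, beside 5.92%, and the median log2 fold change was -0.92. In replicates 1 and 2 alone 4 were called lower, beside 12.9%, and 1 after the length and GC correction, beside 8.61%. Replicate 3 of both groups held more liver RNA than the other libraries. A list of 13 liver genes summed to 1970 CPM in the control and 3190 CPM in the APAP+IBU pool, against 188 to 556 CPM elsewhere. All 13 genes were highest in replicate 3 of both groups, as 10.6% of all tested genes were. Whether the liver RNA accounts for other differences of replicate 3 was not tested. Spermatid genes, which a fetal ovary should lack, summed to 45.7 to 148 CPM in controls and 3.65 to 8.83 CPM in exposed pools. All 10 were lower in exposed pools without overlap, beside 5.92% of all tested genes. The lists for stroma (3130 to 5020 CPM), macrophages (80.2 to 133 CPM), mast cells (10.6 to 53.9 CPM), erythroid cells (2330 to 12700 CPM) and mesonephros (166 to 333 CPM) overlapped between the groups in their summed levels. The endothelial list of 9 genes did not, with sums of 523 to 567 CPM in controls and 436 to 493 CPM in exposed pools. Whether these sums stay apart with other ways of scaling the libraries was not tested. The part of spermatid, testis, liver and endothelial RNA in the members' values was not tested. Because of the liver RNA the fold changes, ratios and counts of calls below are also given for replicates 1 and 2 of each group alone, 4 libraries in all.

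**Figure D1:**
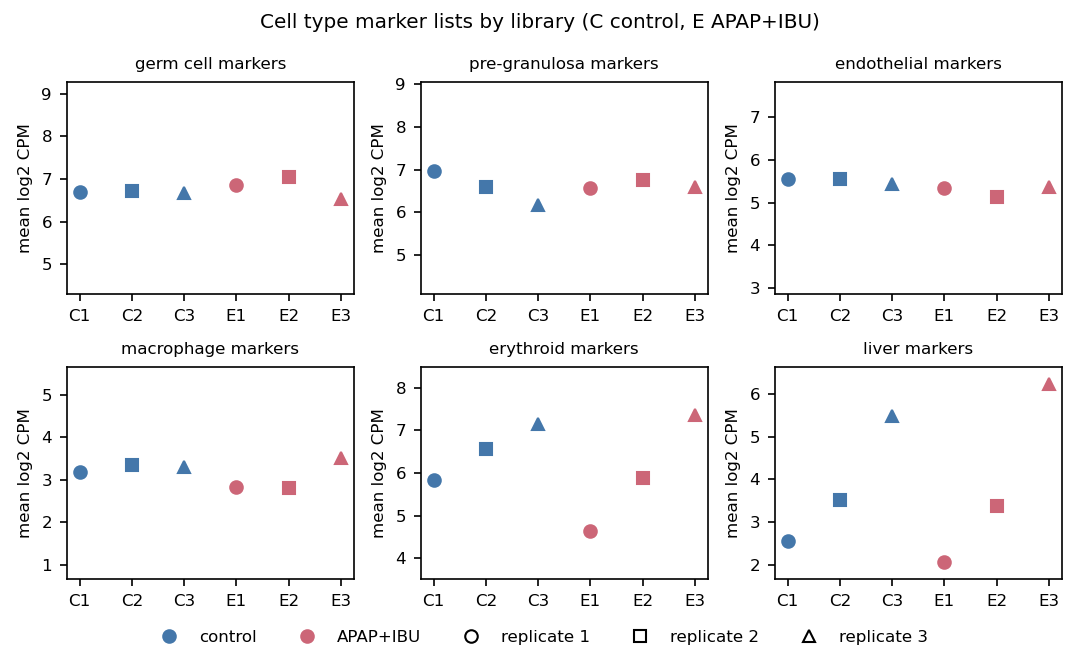
Mean log2 CPM of 6 marker lists in each library, with controls in blue (C1 to C3) and APAP+IBU pools in red (E1 to E3); every panel spans the same log2 range. The liver list stood at 5.49 and 6.25 in the replicate 3 libraries and at 2.05 to 3.52 in the others, while the germ cell list stayed between 6.53 and 7.05.

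None of the 9 genes differed between the groups at an adjusted p under 0.05 when all 6 libraries were compared, and 0.0% of the 20167 tested genes did so in edgeR's quasi-likelihood test. At an unadjusted p under 0.05 there was 1 member, Kitl, and 1254 genes in all (6.22%, with 3.0% higher and 3.21% lower). After a correction of the 6 libraries for transcript length and GC the 1 such member was Cxcl12 instead. Its log2 fold change was then -0.39 (unadjusted p = 0.0165 in edgeR's test), and that of Kitl was 0.23 (unadjusted p = 0.0858). DESeq2 called 192 genes (0.952%) and none of the members. The log2 fold change was negative in 8 members and positive in Kitl, with a median of -0.226 over the members and -0.005 over all tested genes. Without the replicate 3 libraries, Kitl was higher and Ifitm3 and Alpl were lower in exposed ovaries at an adjusted p under 0.05, among 14.2% of tested genes called higher and 12.9% called lower. A loess correction of the 4 libraries for transcript length and GC left no member called, while 5.98% of genes were called higher and 8.61% lower. The 3 of 9 members called in the 4 libraries stand beside 27.2% of all genes called there. DESeq2 added Tfap2c to these calls, and it called 28.3% of all genes.

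**Figure D2:**
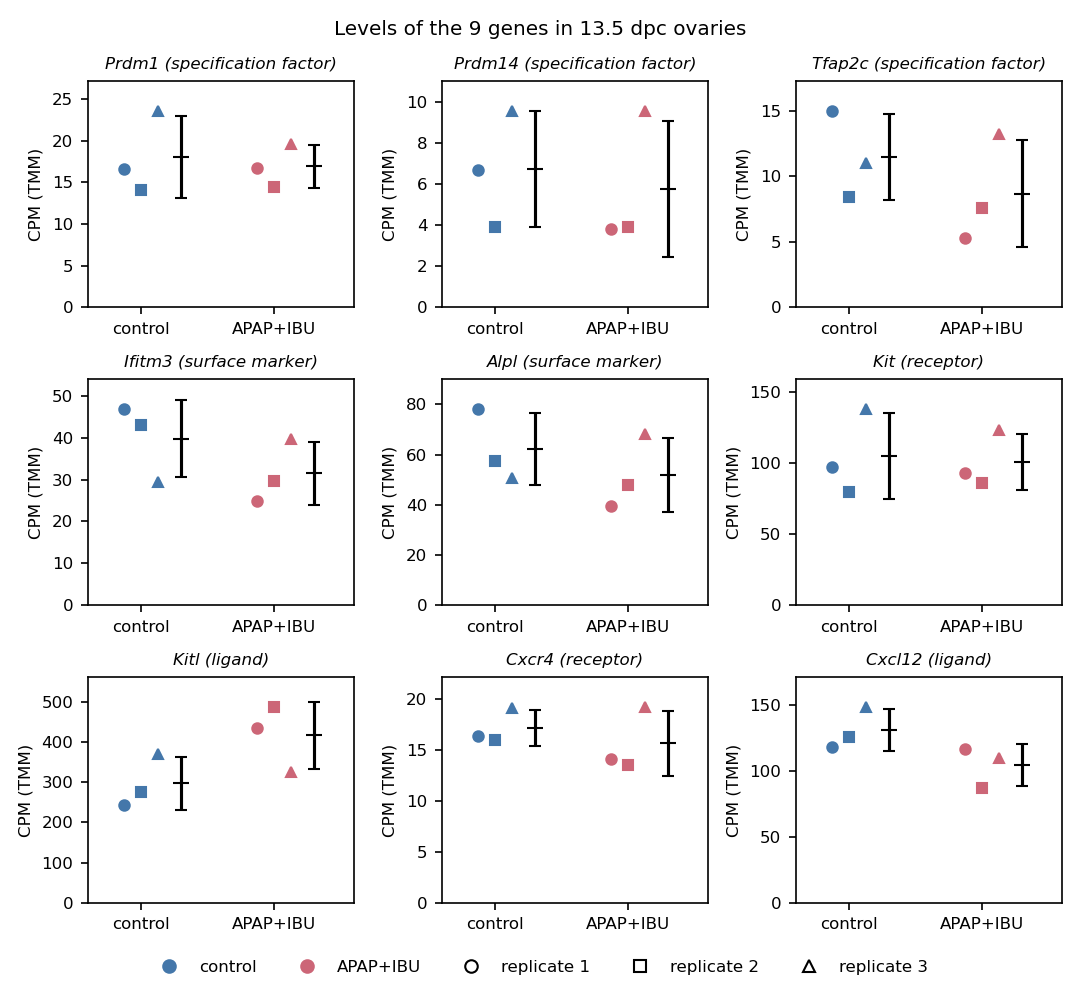
CPM of each of the 9 genes in the 6 libraries, with the symbol's shape giving the replicate number and black bars giving the group mean and SD (n = 3); all axes start at 0. In 8 of the 9 genes the control and APAP+IBU values overlapped, and for Cxcl12 the exposed pools lay below the controls, at 86.9 to 117 CPM against 118 to 149 CPM.

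Prdm1 encodes the zinc finger repressor BLIMP1, which shuts off the somatic programme in germ cell precursors (ENSMUSG00000038151, GRCm38 chr10:44437177-44528501, minus strand). It was at 16.6, 14.1 and 23.6 CPM in control replicates 1, 2 and 3 and at 16.7, 14.5 and 19.6 CPM in APAP+IBU replicates 1, 2 and 3. The first and second replicates of the groups were nearly level, and replicate 3 was highest in both. Mean levels were 18.1 ± 4.9 CPM (SD, n = 3) and 16.9 ± 2.55 CPM (SD, n = 3), and the log2 fold change was -0.10 (95% interval -0.62 to 0.42, adjusted p = 0.887 in edgeR's test). Over the 4 libraries of replicates 1 and 2 it was 0.04 (adjusted p = 0.863).

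Prdm14 encodes a related zinc finger factor that represses differentiation genes and supports the return to pluripotency (ENSMUSG00000042414, chr1:13113457-13127163, minus strand). It was the least abundant member, with 146 to 414 counts per library. Control replicates 1, 2 and 3 had 6.69, 3.91 and 9.54 CPM, and APAP+IBU replicates 1, 2 and 3 had 3.82, 3.89 and 9.55 CPM. Both replicate 3 libraries were the highest, and control replicate 2 was level with exposed replicates 1 and 2. The difference between the groups (log2 fold change -0.23, 95% interval -1.25 to 0.80, adjusted p = 0.868) was far inside the spread within each group. In replicates 1 and 2 it was -0.44 (adjusted p = 0.298), and without control replicate 3 it was 0.12.

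Tfap2c encodes AP-2 gamma, which acts with PRDM1 and PRDM14 in specification (ENSMUSG00000028640, chr2:172549593-172558622, plus strand). Its levels were 15.0, 8.43 and 11.0 CPM in control replicates 1, 2 and 3 and 5.3, 7.55 and 13.2 CPM in exposed replicates 1, 2 and 3. Exposed replicates 1 and 2 were below every control, whereas exposed replicate 3 was above both control replicates 2 and 3. Over 6 libraries the log2 fold change was -0.40 (95% interval -1.22 to 0.42, adjusted p = 0.732). Without the replicate 3 libraries it was -0.85, and its adjusted p of 0.0768 in edgeR's test and 0.0211 in DESeq2 lay on either side of the threshold.

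Ifitm3 encodes fragilis, an interferon-inducible membrane protein that marks early germ cell precursors but is also made by many somatic and blood cells (ENSMUSG00000025492, chr7:141009586-141010770, minus strand). Control replicates 1, 2 and 3 had 47.0, 43.0 and 29.4 CPM, and APAP+IBU replicates 1, 2 and 3 had 24.9, 29.8 and 39.8 CPM. Control replicate 3 sat with exposed replicates 1 and 2, and exposed replicate 3 sat nearer control replicates 1 and 2. The group means were 39.8 ± 9.21 CPM (SD, n = 3) and 31.5 ± 7.59 CPM (SD, n = 3), with a log2 fold change of -0.34 (95% interval -0.87 to 0.20, adjusted p = 0.699). Over the 4 libraries of replicates 1 and 2 Ifitm3 fell by 0.70 on the log2 scale (95% interval -0.99 to -0.41, adjusted p = 0.00965), and by 0.29 after correction for length and GC content (adjusted p = 0.104). At 678 bases of exon it was the shortest member. Among its 629 windows of 50 bases, 63 also occurred in transcripts of 5 other genes, led by Gm7676 and Ifitm2. Part of its reads may thus match another gene as well, and how such reads were counted was not examined. The other 8 members shared no such window with another gene.

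Alpl encodes tissue-nonspecific alkaline phosphatase, the enzyme whose staining has long been used to see primordial germ cells (ENSMUSG00000028766, chr4:137741733-137796384, minus strand). It was at 78.3, 57.6 and 50.7 CPM in control replicates 1, 2 and 3 and at 39.5, 48.0 and 68.1 CPM in exposed replicates 1, 2 and 3. As for Ifitm3, exposed replicate 3 was high for its group and control replicate 3 was low for its own. The log2 fold change was -0.26 (95% interval -0.81 to 0.28, adjusted p = 0.733) over 6 libraries. In replicates 1 and 2 Alpl fell by 0.61 on the log2 scale (95% interval -0.99 to -0.23, adjusted p = 0.0311), and by 0.39 after the length and GC correction (adjusted p = 0.0831).

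**Figure D3:**
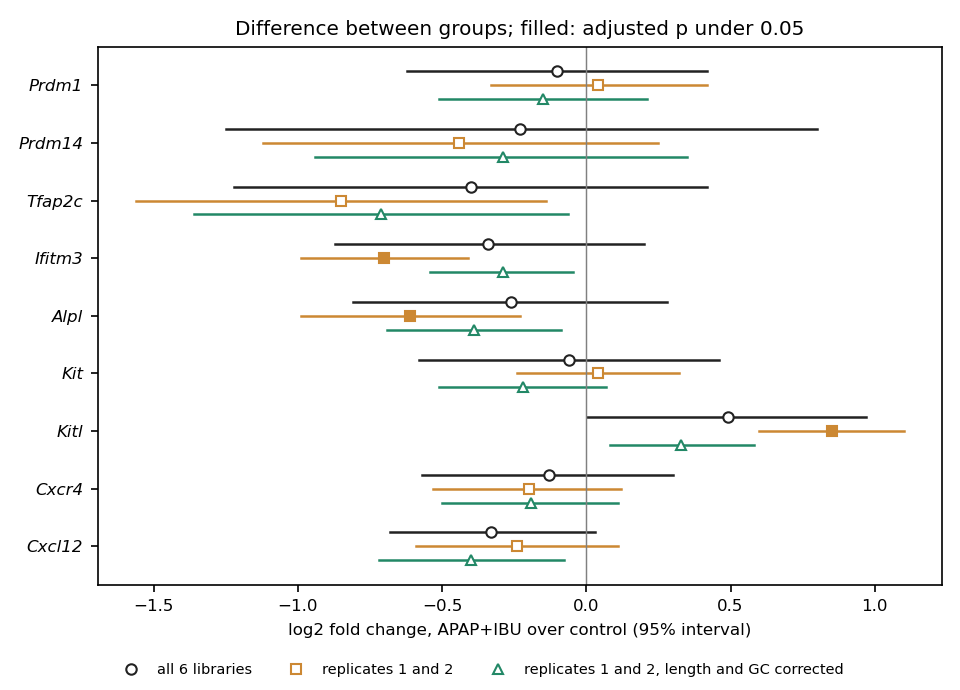
Log2 fold change of APAP+IBU over control with its 95% interval for each gene, from all 6 libraries (black circles), from replicates 1 and 2 (orange squares) and from replicates 1 and 2 after length and GC correction (green triangles); filled symbols have an adjusted p under 0.05. Only the uncorrected values of Ifitm3, Alpl and Kitl from replicates 1 and 2 are filled, at -0.70, -0.61 and 0.85.

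Kit encodes the receptor tyrosine kinase of germ cells, which melanoblasts, mast cells and blood progenitors also carry (ENSMUSG00000005672, chr5:75574916-75656722, plus strand). It had 97.0, 79.2 and 138 CPM in control replicates 1, 2 and 3 and 93.0, 85.6 and 123 CPM in exposed replicates 1, 2 and 3. The groups were nearly level replicate by replicate, with replicate 3 highest in both. Means were 105 ± 30.1 CPM (SD, n = 3) and 101 ± 19.8 CPM (SD, n = 3), and the log2 fold change of -0.06 had a 95% interval from -0.58 to 0.46 (adjusted p = 0.935). The mast cell markers Cpa3 (1.04 to 2.5 CPM) and Ms4a2 (0.0197 to 0.161 CPM) were low or near 0 in all libraries, whereas Hdc, from the same list and named after its values were seen, had 19.0 to 31.1 CPM in controls and 9.35 to 51.3 CPM in exposed pools. The part of mast cell RNA in the Kit values was not tested. Without the replicate 3 libraries the log2 fold change of Kit was 0.04 (95% interval -0.24 to 0.32).

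Kitl encodes the KIT ligand, also called stem cell factor, made by somatic cells of the gonad (ENSMUSG00000019966, chr10:100015630-100100416, plus strand). It had the most counts of the 9 genes, 9292 to 22335 per library. Control replicates 1, 2 and 3 had 244, 276 and 371 CPM, and APAP+IBU replicates 1, 2 and 3 had 435, 488 and 325 CPM. Exposed replicates 1 and 2 were above every control, while exposed replicate 3 was below control replicate 3. Means were 297 ± 66.4 CPM (SD, n = 3) and 416 ± 82.8 CPM (SD, n = 3). The log2 fold change over 6 libraries was 0.49 (95% interval 0.00318 to 0.97), with an unadjusted p of 0.0488 and an adjusted p of 0.692 in edgeR's test. Over the 4 libraries of replicates 1 and 2 Kitl rose 1.8-fold, a log2 fold change of 0.85 (95% interval 0.60 to 1.10, adjusted p = 0.00625). Its transcript had the lowest GC content of the 9, at 39.3%, and after the length and GC correction the same 4 libraries gave 0.33 (adjusted p = 0.0766). With this correction all 6 libraries gave 0.23 (95% interval -0.0408 to 0.50, adjusted p = 0.541).

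Cxcr4 encodes the chemokine receptor that germ cells follow towards the gonad and that endothelial and blood cells also carry (ENSMUSG00000045382, chr1:128588199-128592293, minus strand). It varied least among the members, from 13.6 to 19.3 CPM. Its levels were 16.4, 16 and 19.2 CPM in control replicates 1, 2 and 3 and 14.1, 13.6 and 19.3 CPM in exposed replicates 1, 2 and 3. Replicate 3 was again highest in both groups, at the same level. The log2 fold change was -0.13 (95% interval -0.57 to 0.30, adjusted p = 0.81), and -0.20 with replicates 1 and 2 (adjusted p = 0.311).

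Cxcl12 encodes the ligand of CXCR4, a chemokine secreted by stromal and endothelial cells (ENSMUSG00000061353, chr6:117168535-117181367, plus strand). Control replicates 1, 2 and 3 had 118, 126 and 149 CPM, and APAP+IBU replicates 1, 2 and 3 had 117, 86.9 and 110 CPM. Every exposed library was thus below every control library, at 117 CPM against 118 CPM at the closest, and 5.92% of all tested genes were lower without overlap in the same way. With total counts or upper quartile scaling in place of TMM, the groups overlapped. Means were 131 ± 16.2 CPM (SD, n = 3) and 105 ± 15.6 CPM (SD, n = 3), and the log2 fold change was -0.33 (95% interval -0.68 to 0.0292, adjusted p = 0.692). In replicates 1 and 2 it was -0.24 (adjusted p = 0.264), and -0.40 there after the length and GC correction (95% interval -0.72 to -0.0769, adjusted p = 0.0929). With this correction all 6 libraries gave -0.39 (95% interval -0.68 to -0.091, adjusted p = 0.507). With TMM scaling, the only one used for the sums, the summed endothelial list was also lower in every exposed pool. Of its 9 genes, 2 were lower without overlap, the median log2 fold change was -0.22, and 0 had an unadjusted p under 0.05. The stroma list of 9 genes overlapped in its sums, with a median of -0.24. At an unadjusted p under 0.05, 2 of its genes were lower, beside 3.21% of all tested genes. These were the collagen genes Col1a1 (-0.78) and Col1a2 (-0.47), named after their values were seen. The other genes of the list were at 0.15 (Pdgfra), -0.22 (Nr2f2), 0.0 (Tcf21), -0.31 (Col3a1), 0.05 (Dcn), -0.24 (Lum) and -0.33 (Postn). In replicates 1 and 2 alone, 1 stroma gene was called higher and 2 lower, beside 14.2% and 12.9% of all tested genes. After the length and GC correction 0 were called higher and 5 lower, beside 5.98% and 8.61%. For the endothelial list, replicates 1 and 2 gave 0 called higher and 2 lower, and 0 and 3 after the correction. The part of endothelial and stromal RNA in the Cxcl12 values was not tested.

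The ratio of ligand to receptor RNA within a library does not depend on how libraries are scaled. It was not corrected for transcript length and GC. In replicates 1 and 2 that correction moved the log2 fold change of Kitl from 0.85 to 0.33 and of Kit from 0.04 to -0.22. Kitl exceeded Kit 2.51, 3.49 and 2.69 times in CPM in control replicates 1, 2 and 3 and 4.68, 5.69 and 2.64 times in exposed replicates 1, 2 and 3. Exposed replicates 1 and 2 had higher ratios than every control, and exposed replicate 3 was between the controls. The mean log2 ratio was higher by 0.53 in exposed ovaries, which an exact two-sided permutation test did not tell apart from 0 (p = 0.3, and 0.55 after adjustment over 11 such comparisons), where 3 against 3 libraries cannot go below 0.1. In replicates 1 and 2 the difference was 0.80 (exact permutation p = 0.333), and with 1 library left out it ran from 0.29 without APAP+IBU replicate 2 to 0.85 without APAP+IBU replicate 3. Cxcl12 exceeded Cxcr4 7.18, 7.87 and 7.77 times in control replicates 1, 2 and 3 and 8.25, 6.38 and 5.7 times in exposed replicates 1, 2 and 3. The controls lay within a narrow range and the exposed libraries lay on both sides of it (difference -0.18 on the log2 scale, exact permutation p = 0.4, adjusted 0.629). This difference was -0.05 in replicates 1 and 2 (exact permutation p = 1.0), and it ran from -0.33 without APAP+IBU replicate 1 to -0.068 without APAP+IBU replicate 3.

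**Figure D4:**
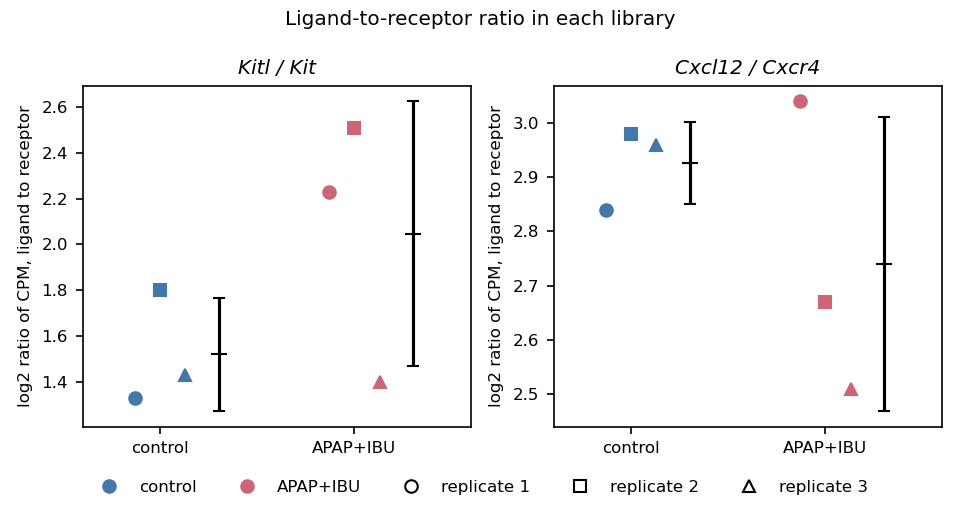
Log2 ratio of ligand to receptor CPM in each library for Kitl over Kit and Cxcl12 over Cxcr4, with the group mean and SD (n = 3) in black; the vertical axes do not start at 0. The Kitl ratio of exposed replicates 1 and 2 (2.23 and 2.51) was above all controls (1.33 to 1.80), and exposed replicate 3 was at 1.40.

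Members were also set against the mean log2 CPM of the 10 germ cell markers in the same library, without the length and GC correction. Relative to them, all 7 genes other than the ligands were lower in exposed ovaries on average, from -0.16 (Kit) to -0.59 (Tfap2c) on the log2 scale, and the ligands were at 0.36 (Kitl) and -0.46 (Cxcl12). In each of these 9 comparisons the groups overlapped, and the exact permutation p ran from 0.2 to 0.7, with adjusted values from 0.55 to 0.70. Without the replicate 3 libraries the relative level was lower by 1.08 for Tfap2c, 0.97 for Ifitm3 and 0.88 for Alpl, with an exact p of 0.333, the smallest that 2 against 2 allow. For the other members these 4 libraries gave -0.23 for Prdm1, -0.66 for Prdm14, -0.23 for Kit, 0.58 for Kitl, -0.48 for Cxcr4 and -0.53 for Cxcl12, with an exact p of 0.333 or 0.667. Of the germ cell markers, 5 of 10 were called higher and 1 lower in those 4 libraries, beside 14.2% and 12.9% of all tested genes. After the length and GC correction 1 was called higher and 0 lower, and 0 were called in all 6 libraries. The mean log2 CPM of the markers was 6.69, 6.72 and 6.66 in control replicates 1, 2 and 3. In exposed replicates 1, 2 and 3 it was 6.87, 7.05 and 6.53. The relative levels thus include shifts of the markers themselves, among them the meiotic gene Sycp3.

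Per length, as FPKM (CPM divided by exon length in kilobases), the members of control ovaries fell into 3 tiers. Ifitm3 was at 58.7 ± 13.6 FPKM and Kitl at 50.3 ± 11.2 FPKM (SD, n = 3), and the libraries of these neighbours overlapped. Then came Cxcl12 (16 ± 1.98), Alpl (15.4 ± 3.56), Kit (11.8 ± 3.38) and Cxcr4 (9.51 ± 0.951 FPKM), each overlapping the next. The specification factors were lowest, with Prdm1 at 3.24 ± 0.878, Tfap2c at 3.11 ± 0.897 and Prdm14 at 2.62 ± 1.1 FPKM, again overlapping one another. No library of one tier reached into the next tier. In exposed ovaries the tiers held the same genes, but Kitl (70.4 ± 14 FPKM) stood above Ifitm3 (46.4 ± 11.2 FPKM) and Alpl (12.9 ± 3.63 FPKM) above Cxcl12 (12.8 ± 1.91 FPKM), with overlapping libraries in both pairs. Among all tested genes, Kitl and Ifitm3 exceeded 96.2% and 95.5% of genes in mean FPKM, and Prdm14 exceeded 41.9%.

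**Figure D5:**
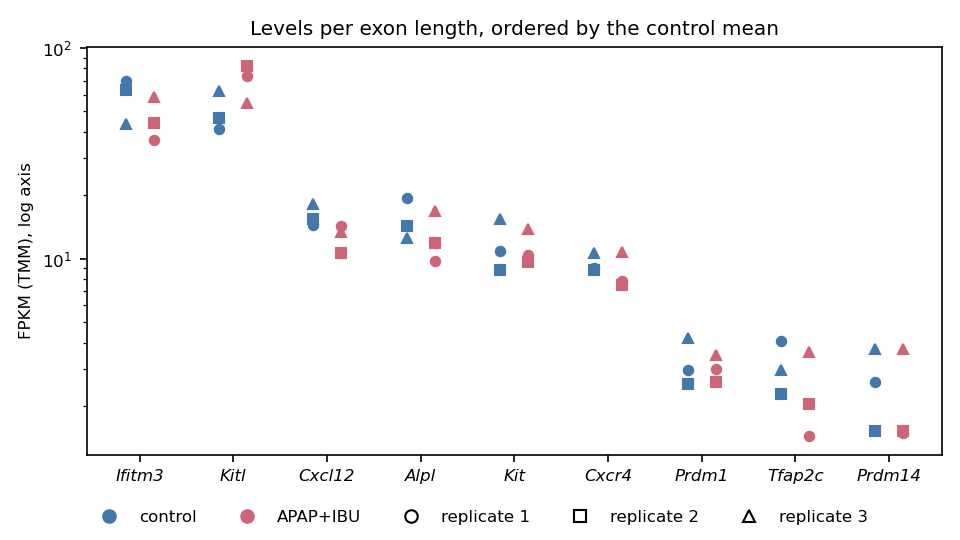
FPKM of each gene in every library on a log axis, ordered by the control mean. Ifitm3 and Kitl lie between 36.7 and 82.5 FPKM, the next 4 genes between 7.52 and 19.4 FPKM, and the specification factors between 1.44 and 4.22 FPKM.

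Replicate 3 moved several members in the same direction in both groups. Prdm1, Prdm14, Kit and Cxcr4 were higher in replicate 3 than in replicates 1 and 2 of both groups, which was so for 10.6% of all tested genes, and no member was lower there in both groups, as 9.9% of genes were. On the log2 scale, replicate 3 exceeded the mean of the other replicates by 0.90 in controls and 1.30 in exposed pools for Prdm14, and by 0.65 and 0.46 for Kit. Tfap2c was higher in exposed replicate 3 by 1.06, while control replicate 3 lay between the other controls (-0.04). For Ifitm3, Alpl and Kitl replicate 3 moved in opposite directions in the groups, by -0.61 in controls and 0.55 in exposed pools for Ifitm3 and by 0.52 and -0.50 for Kitl. The liver list was highest in both replicate 3 libraries, and 7 of 10 erythroid genes were too. Whether blood RNA plays a part in these values was not tested.

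Likeness of pattern was measured as the root mean square difference between log2 CPM profiles over the 6 libraries, each centred on its own mean. Prdm1 and Kit were each other's nearest member, at 0.0568, and Kit was the nearest of all tested genes to Prdm1. Ifitm3 and Alpl were each other's nearest member, at 0.122, and Tfap2c was nearest to Alpl, at 0.245. Kitl and Tfap2c were the farthest apart, at 0.791. Among all tested genes, Prdm14 was closest to Liph (0.0898), the pluripotency gene Nanog (0.104) and Kndc1 (0.144), and Tfap2c to Foxh1 (0.0509), the germ cell zinc finger gene Sall4 (0.0779) and Htr1d (0.109). The genes nearest to Ifitm3 were Rpl3 (0.0225), Imp3 (0.0281) and Rpl36al (0.0449), and Alpl was closest to Ung (0.0397), Mesp2 (0.0451) and Zscan10 (0.0528). Kit was closest to Six4 (0.0496), then to Prdm1 and to Cemip2 (0.0625), and Prdm1 had Pot1a (0.0581) and Gm9027 (0.0641) after Kit. Kitl ran closest to Ern1 (0.0372), Mbd5 (0.0381) and Ralgapb (0.0425), Cxcr4 to Kif2c (0.0355), Rfc5 (0.0394) and Rimkla (0.043), and Cxcl12 to Car12 (0.0649), Spry4 (0.0649) and Gm5160 (0.0785). With 6 libraries and 20167 genes, near profiles are found for any gene, and these distances are descriptions.

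Other genes of the specification network were read from a list of 32, all of them tested. None was called over 6 libraries. At an unadjusted p under 0.05 there were 0 higher and 3 lower, beside 3.0% and 3.21% of all tested genes. The median log2 fold change was -0.21. Only 3 genes had groups that did not overlap, where 4.78% of tested genes were higher and 5.92% lower in this way. Tfap2a, the AP-2 alpha paralog of Tfap2c, was at 2.1 to 2.95 CPM in controls and 1.53 to 1.97 CPM in exposed ovaries (log2 fold change -0.51, adjusted p = 0.692), and its groups overlapped with total counts. The corepressor Tle3 was at 62.4 to 86.8 CPM and 58.3 to 62.3 CPM (-0.34, adjusted p = 0.692), and the histone methyltransferase Ehmt1 at 123 to 148 CPM and 149 to 153 CPM (0.18, adjusted p = 0.699). Tle3 overlapped between the groups with RLE scaling, and Ehmt1 with RLE, upper quartile or total count scaling. Over the 4 libraries of replicates 1 and 2 alone, 5 of the 32 were called higher and 11 lower, against 14.2% and 12.9% of all tested genes, and 1 and 4 after the length and GC correction, against 5.98% and 8.61%. Without the correction, the 5 called higher were Bmpr2 (log2 fold change 0.72), Bmpr1a (0.39), Smad5 (0.39), Smad4 (0.33) and Ehmt1 (0.3). The 11 include Dppa3 and Pou5f1, named here after their values were seen and given without the length and GC correction. Whether these 2 are among the 4 called lower after it is not given here. Dppa3, which protects maternal methylation in the egg and early embryo, was at 93.5 and 54.5 CPM in control replicates 1 and 2 and 37.2 and 36.3 CPM in exposed replicates 1 and 2 (log2 fold change -0.99, adjusted p = 0.0197). In replicate 3 it was at 63.5 CPM in the control and 60.4 CPM in the exposed pool. The pluripotency factor Pou5f1 was at 144 and 94.8 CPM against 57.5 and 64.0 CPM (-0.95, adjusted p = 0.012), with 84.5 and 108 CPM in replicate 3.

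Of 36 genes that carry or limit the KIT signal, among them adaptors, RAS and MAP kinases, the PI3K and AKT branch and phosphatases, all were tested and none was called over 6 libraries. None had groups without overlap, and the median log2 fold change was -0.02. In replicates 1 and 2 alone 8 were called higher and 6 lower, beside 14.2% and 12.9% of all tested genes, and 1 and 2 after the length and GC correction, beside 5.98% and 8.61%. Of 30 genes of the CXCR4 route none was called, and 0 were higher and 3 lower without overlap, beside 4.78% and 5.92% of all tested genes, with a median of -0.06. They were the small GTPases Rhoa (316 to 387 CPM in controls and 259 to 293 CPM in exposed ovaries, log2 fold change -0.31) and Rac1 (290 to 311 and 252 to 258 CPM, -0.23), which act in cell movement, and the G protein subunit Gnb1 (546 to 580 and 503 to 515 CPM, -0.15). Their adjusted p ran from 0.692 to 0.711, and the groups of these 3 genes stayed apart with each of the 4 scalings tried. Without the replicate 3 libraries 2 genes of this list were called higher and 3 lower, beside the same 14.2% and 12.9%, and 0 and 1 after the correction, beside 5.98% and 8.61%.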

How the data were processed

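RNA of 3 control and 3 APAP+IBU pools of 13.5 dpc ovaries was sequenced as stranded mRNA libraries. The authors mapped reads to mm10 with TopHat2 2.0.14 and Bowtie2 2.1.0, counted them per Ensembl gene with HTSeq 0.6.1 and deposited raw counts, not normalised. The strand setting is not given in the sources used here, and no member shares exon bases with another annotated gene. The exposed titles name IBU alone, and the exposure label, which names both drugs, was followed. The members and lists were chosen with earlier results of these data known.

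In edgeR 4.0.16 under R 4.3.3, libraries were scaled by TMM, filterByExpr left 20167 genes to test, and quasi-likelihood p-values had Benjamini-Hochberg adjustment over all tested genes. CPM are TMM-scaled, and log2 CPM used a prior count of 1. FPKM used merged exon lengths of GENCODE M21 on GRCm38, the assembly of mm10. GC content was that of the longest transcript, and the correction was a loess fit (span 0.3) per library. DESeq2 1.42.0 was an alternative. Single ratios were tested by exact permutation. All 9 members are named, and from other lists those called or, failing that, up to 4 whose groups did not overlap. Of the germ cell, pre-granulosa, stroma, testis and mast cell lists the first genes are named, and of the other marker lists none. Dppa3, Pou5f1, Hdc and the other stroma genes, among them Col1a1 and Col1a2, were added after their values were seen. So were Bmpr2, Bmpr1a, Smad5 and Smad4. On simulated counts edgeR recovered 94% of genes changed by a log2 fold of 1 with 6 libraries and 83% with 4. The simulated libraries shared a mean profile and a fixed dispersion, without the deviations of replicate 3. These shares therefore do not give the power of the tests on the real libraries. No pair of libraries of a group agreed within sampling noise (their chi-square over its degrees of freedom was 19.1 to 159). With pools as replicates, p-values measure the spread between pools. Over the 4 libraries they measure the spread between replicates 1 and 2 alone, after the libraries known to deviate were left out. These kept pairs were the closest of their groups, at 32.4 (control) and 19.1 (exposed), against 63.5 to 159 for pairs with replicate 3. The p-values and counts of calls over the 4 libraries do not include the spread of replicate 3.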

Additional observations from a re-analysis of the deposited data

How the results depend on the processing

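Over all 6 libraries 0 genes were called, against 192 with DESeq2, 120 with all genes of at least 1 count, 2 with the replicate block, 29 with the replicate block and length and GC correction, 0 to 1064 with 1 library left out (calls only without control replicate 3), 5607 with replicates 1 and 2, 3010 there with the correction and 5832 there with DESeq2. Members called went from 0 to 3 with replicates 1 and 2 and 4 there with DESeq2 (0 to 0 with 1 library left out). With replicates 1 and 2, with the correction and with DESeq2 there, specification network calls were 16, 5 and 18, Kit pathway calls 14, 3 and 15, and Cxcr4 pathway calls 5, 1 and 6. With 1 library left out they were 0 to 1, 0 to 2 and 0 to 0, with calls only without control replicate 3. The replicate block called no member and no gene of these lists. Deviations from the group means of libraries with the same number had correlations of -0.0695, -0.0151 and -0.044, so the numbers were not taken as pairs, although both libraries numbered 3 held liver RNA.

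Past the threshold with replicates 1 and 2, and there with DESeq2, were the log2 fold changes of Kitl (0.85 and 0.84), Ifitm3 (-0.70 and -0.71) and Alpl (-0.61 and -0.62), and of Tfap2c with DESeq2 (-0.85). Prdm1 turned positive there (0.043 and 0.035), as did Kit (0.041 and 0.033), but with the correction they were -0.15 and -0.22. With 1 library left out, log2 fold changes ran from -0.25 to 0.14 for Prdm1, -0.83 to 0.12 for Prdm14, -0.86 to -0.15 for Tfap2c, -0.56 to -0.20 for Ifitm3, -0.53 to -0.063 for Alpl, -0.25 to 0.19 for Kit, 0.34 to 0.68 for Kitl, -0.33 to -0.049 for Cxcr4 and -0.42 to -0.22 for Cxcl12. Relative to germ cell markers the ranges were -0.45 to 0.024 for Prdm1 and -0.46 to 0.071 for Kit, and, with no change of sign, -0.97 to -0.069 for Prdm14, -1.08 to -0.25 for Tfap2c, -0.79 to -0.28 for Ifitm3, -0.76 to -0.20 for Alpl, 0.23 to 0.55 for Kitl, -0.57 to -0.065 for Cxcr4 and -0.64 to -0.21 for Cxcl12. The log2 fold changes of Prdm1, Prdm14 and Kit turned positive without control replicate 3 and that of Kit also without APAP+IBU replicate 2, and the relative levels of Prdm1 and Kit turned positive without either library. The ratios ran from 0.29 to 0.85 for Kitl to Kit and -0.33 to -0.068 for Cxcl12 to Cxcr4. The cause of these moves was not tested. Prdm14, with 146 to 414 counts per library, is the member that depth limits most.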
